A study of Mus musculus with 43 samples.

Results

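Among 15 mouse lungs taken after 15 weeks of house dust mite (HDM) with an anti-IL-33 antibody, the level of Arg1, the arginase 1 gene, spanned 22.9-fold, and this spread was used to sort the libraries. The 5 libraries with the highest Arg1 and the 5 with the lowest were selected on Arg1 CPM, the raw count scaled to a common library total, which leaves 5 in the middle, out of 15 in the group and 43 in the series. Arg1 chose the libraries, so its own difference is a description, and Arg1 is left out of every comparison that follows. The question was which other genes differ between these libraries, and whether they follow Arg1 over all 15 libraries and within each of the 2 ranges into which the sample numbers in the labels fall. The labels do not say what sets the ranges apart, and range 1 holds 8 of the 15 libraries and range 2 holds 7.

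Every mouse in the series carried the Il33hu/hu genotype, a humanised Il33, on a strain background labelled C57BL/6NTac (75%) / 129S6SvEvTac (25%). The other groups were saline (7 libraries, with no time label), HDM for 4 weeks (10), HDM for 15 weeks without antibody (7) and HDM for 15 weeks with an isotype control antibody (4). HDM is an airway allergen extract, and lung total RNA was sequenced as strand-specific mRNA libraries. Replicate numbers below follow the order of deposition and only name a library. The labels tie each library to a number of its own and do not say whether any share a cage or a dosing schedule, so p-values measure the spread between these samples.

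Arginase 1 turns arginine into ornithine and urea, and in the lung it is made mainly by macrophages exposed to IL-4 and IL-13, which act through the IL-4 receptor and the transcription factor STAT6. Macrophages in that state, often called alternatively activated, also make chitinase-like proteins, resistin-like molecules and chemokines that draw eosinophils. IL-33 is an alarmin released by barrier cells that acts through its receptor ST2, encoded by Il1rl1, on innate lymphoid cells, T helper 2 cells and mast cells, which then release IL-5 and IL-13.

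Arg1 (chromosome 10, 24915207 to 24927470, GRCm38.p6) was at 5.58, 6.24, 8.95, 10.9 and 11.6 CPM in the 5 lowest libraries, replicates 4, 5, 3, 6 and 9. It was at 12.3, 12.62, 20.2, 20.8 and 23.4 CPM in the middle libraries, replicates 10, 7, 15, 14 and 1, and at 25.4, 50.6, 91.1, 127 and 128 CPM in the 5 highest, replicates 2, 11, 13, 12 and 8. This order of libraries is kept wherever values are listed below. The level just inside the upper group was 25.4 CPM against 23.4 CPM just outside it, and on the lower side 11.6 CPM stood inside and 12.3 CPM outside. Arg1 ranged from 2.22 to 3.53 CPM in saline (median 2.82), 105 to 422 CPM after 4 weeks of HDM (median 245), 61.2 to 462 CPM after 15 weeks without antibody (median 130) and 117 to 510 CPM with the isotype (median 202). The 3 highest anti-IL-33 libraries therefore lie inside the range of the lungs without antibody, and all 15 lie above every saline lung. Of the 5 lowest libraries 4 are in number range 1 and 1 in range 2, and of the 5 highest 2 are in range 1 and 3 in range 2.

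**Figure D1:**
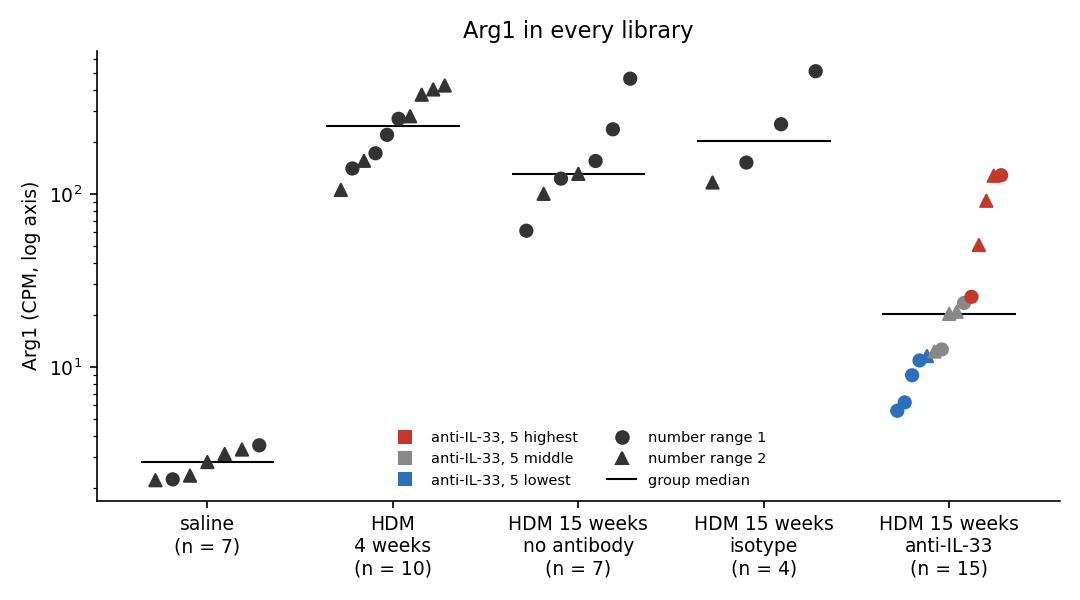
Arg1 in every library of the series, in CPM on a log axis, by group, with the group median as a line, circles for number range 1 and triangles for range 2. The anti-IL-33 libraries run from 5.58 to 128 CPM without a gap that sets the 5 highest (red) or the 5 lowest (blue) apart from the 5 in the middle (grey).

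Library totals under anti-IL-33 were 5126491 to 12599467 counts and did not follow Arg1 (Spearman's rho 0.0143, 2-sided permutation test p = 0.964, Pearson's r 0.260, p = 0.353, n = 15). Markers of the lung itself, such as Sftpc and Scgb1a1, were well expressed in all 15. Replicates 7 and 12 stood apart from the rest in genes of other tissues. The summed level of 10 skeletal muscle markers was 678 CPM in replicate 7 and 453 CPM in replicate 12, against 6.55 to 11.6 CPM in the other 13. That of 10 basal and squamous epithelial markers was 3746 and 1583 CPM, against 3.37 to 13.5 CPM. All 10 markers of both lists had reads in replicates 7 and 12, while in the other 13 libraries 5 to 9 of the muscle markers had reads and Myh4 had none. Replicate 7 also held 3133 CPM of 9 fat markers, against 333 to 1009 CPM in the other libraries. Replicate 7 is in the middle of the Arg1 order, but replicate 12 is one of the 5 highest, so counts and calls that differ without it, or without both, are given beside them. The part of these tissues in the results was not tested beyond that.

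**Figure D2:**
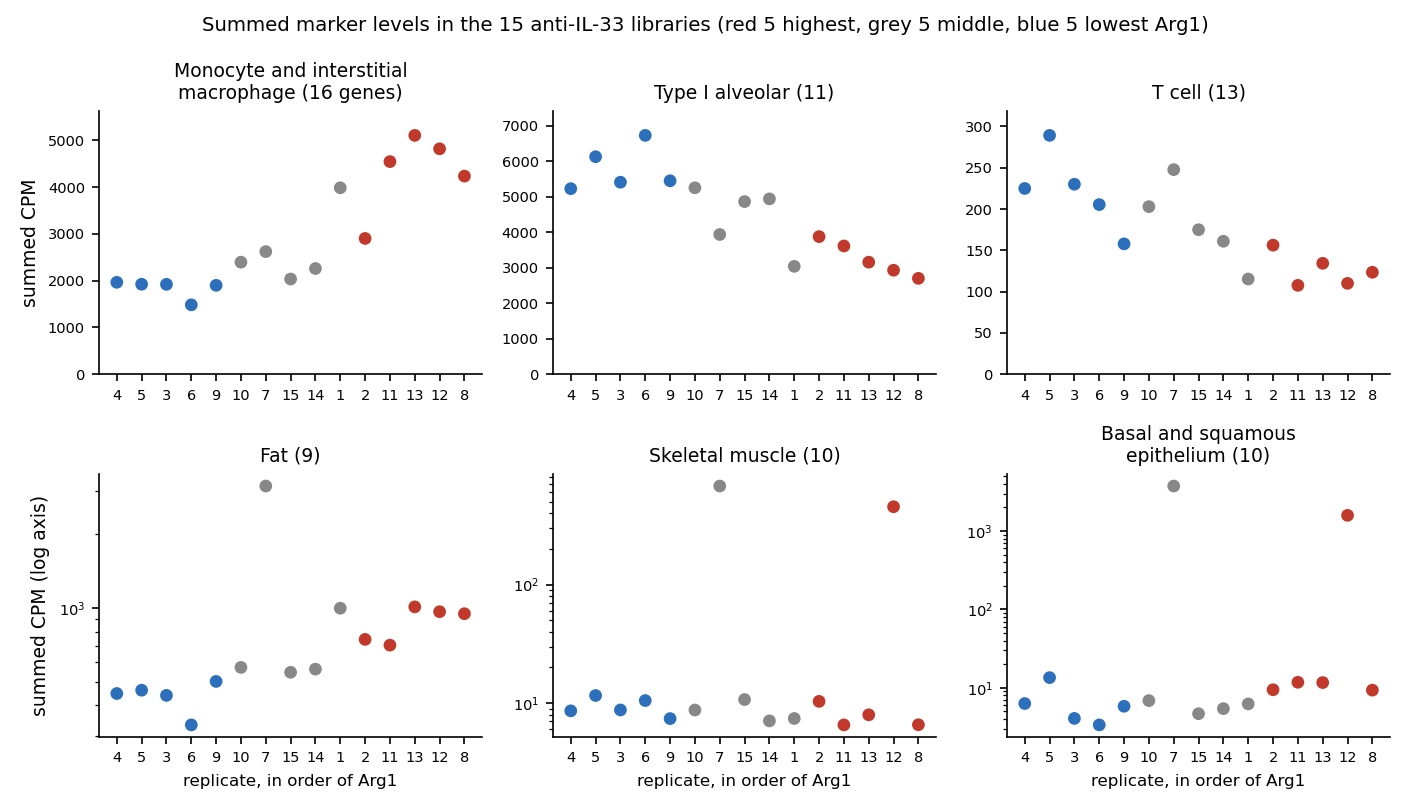
Summed CPM of 6 marker lists in each of the 15 anti-IL-33 libraries, ordered by Arg1 from left to right. The monocyte and macrophage sum is higher and the type I alveolar and T cell sums are lower in the 5 highest libraries (red) than in the 5 lowest (blue), at 2905 to 5109 against 1485 to 1967, 2703 to 3879 against 5229 to 6731 and 108 to 156 against 158 to 289 CPM, while the muscle and squamous sums stand apart only in replicates 7 and 12 and the fat sum in replicate 7. Much of the monocyte and macrophage difference is Spp1, at 1043 to 2551 CPM in the 5 highest and 175 to 418 CPM in the 5 lowest libraries. Of the 16 genes in that sum 5 rose and 2 fell.

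A large share of the lung transcriptome followed Arg1. The main test was the slope of each gene on the log2 of Arg1 over all 15 libraries, in edgeR's quasi-likelihood fit with a term for the number range and Benjamini-Hochberg (BH) adjustment over all 15229 genes tested. A slope is the log2 change of a gene for each doubling of Arg1, and a gene is said to rise or fall where its slope passed an adjusted p of 0.05. By that rule 2662 genes rose (17.5%) and 2591 fell (17%), and the median slope of all genes was -0.000717. With library totals in place of TMM scaling the split turned to 1526 rising and 4476 falling genes, so 25.4% of the calls were rises in place of 50.7%, while the median slope moved only to -0.04. In the 5 highest against the 5 lowest libraries, where no test was made, 1006 genes lay above without overlap (6.61%) and 2396 lay below (15.7%), in CPM. With TMM-scaled CPM these counts were 1679 and 1451. Of the 1006 genes, 958 also rose in the trend over the 15 libraries, and of the 2396 genes 1744 also fell.

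The genes whose order over the 15 libraries was most like that of Arg1 came from several kinds of cell function. By Spearman's rho on log2 CPM, given as a description, they included Ptgir, the prostacyclin receptor (rho 0.961), then Pgam1, Spsb4 and Slc36a1 (0.950 each) and Ctsl, the lysosomal protease cathepsin L (0.946). Pgam1 is a glycolytic enzyme and Slc36a1 a lysosomal amino acid transporter. Ptgir was at 28.1, 18.3, 28.7, 21.7 and 34.3 CPM in the 5 lowest libraries, 34.8, 34.95, 44.6, 57.3 and 69.4 CPM in the middle and 76.9, 78.4, 85.4, 75.04 and 91.8 CPM in the 5 highest. It thus climbed across the whole order, with a slope of 0.50 ± 0.07 (SE) and an adjusted p of 0.000431. At the other end stood Ecm2, an extracellular matrix protein (rho -0.975), Paip2, which restrains translation (-0.964), Ifit1bl1 (-0.954), Gpbp1 and Zfp781 (-0.950 each) and Ifit3b (-0.946). Ecm2 was at 33.5, 42.5, 38.1, 32.7 and 29.7 CPM in the lowest libraries and 21.6, 19.5, 14.99, 14.96 and 12.5 CPM in the highest, with a slope of -0.32 ± 0.03 and an adjusted p of 8.24e-05.

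Several of the largest slopes belonged to genes with few reads in the low libraries. The ranking took called genes with a mean of 2 CPM or more and the same sign in both ranges. It left out predicted genes and gene segments of immunoglobulins and T cell receptors. The 12 largest were Erv3 (1.496), Saa3 (1.16), Bex1 (1.16), Slc6a12 (1.14), Npy (1.09), Orm1 (1.08), Orm2 (1.04), Hal (1.03), Card14 (0.96), Spp1 (0.90), Nfasc (0.90) and Cxcl2 (0.89). The slope of Hal, histidine ammonia-lyase, was 1.76 ± 0.19 in range 1 and 0.31 ± 0.38 in range 2 (adjusted p = 0.625). Its call ended without replicate 8, where the slope was 0.32, and without the range term. Npy, the neuropeptide Y gene, was at 0.458, 0.297, 0.298, 0 and 1.76 CPM in the lowest libraries, 2.60, 2.22, 1.43, 2.97 and 6.24 CPM in the middle and 2.64, 19.8, 13.1, 13.2 and 11.2 CPM in the highest. All 5 highest libraries lay above all 5 lowest, although the lowest of them, replicate 2, was at the level of the middle libraries. Its slope was 1.09 ± 0.17 (adjusted p = 0.000589). Spp1, which encodes osteopontin, a secreted phosphoprotein of macrophages in injured tissue (Entrez 20750, chromosome 5, 104435111 to 104441053), was at 233, 175, 288, 246 and 418 CPM in the lowest libraries, 525, 319, 364, 585 and 1442 CPM in the middle and 1043, 1899, 2551, 2327 and 1751 CPM in the highest. It averaged 1914 ± 583 CPM (SD, n = 5) against 272 ± 91.03 CPM (n = 5), a 7.04-fold difference, with a slope of 0.90 ± 0.11 and an adjusted p of 0.000263. For comparison Spp1 averaged 2578 ± 1472 CPM after 15 weeks without antibody (n = 7), 2897 ± 1332 CPM with the isotype (n = 4) and 92.9 ± 35.7 CPM in saline (n = 7).

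By the same rule the 12 deepest negative slopes included those of Gdpd3 (-0.96), Itgad (-0.88), Cd209a (-0.78), Sox11 (-0.75), Colq (-0.73), Slc7a10 (-0.70), Slc5a12 (-0.65), Cxcl9 (-0.64) and 3 identifiers with no symbol in the annotation used here. Itgad is an integrin subunit of some macrophages, Cd209a a lectin of monocyte-derived dendritic cells, and Slc7a10 an amino acid transporter. Cd209a was at 8.14, 10.1, 8.25, 7.13 and 5.09 CPM in the lowest libraries, 5.86, 0.682, 8.02, 8.92 and 5.27 CPM in the middle and 6.71, 1.31, 0.620, 0.765 and 0.696 CPM in the highest. Of the highest libraries 4 lay below all 5 lowest, and replicate 2 overlapped replicate 9. Its slope was -0.78 ± 0.19 (adjusted p = 0.00545). In the fit without the 2 libraries farthest from the median Arg1, replicates 8 and 12, Cd209a did not pass (adjusted p = 0.128). Neither did Gdpd3 (0.112), Itgad (0.0774), Slc5a12 (0.0589) or Cxcl9 (0.0846), while Sox11, Colq and Slc7a10 still passed.

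Genes of alternatively activated macrophages rose in part. Of the 17 tested members besides Arg1, 7 rose and 0 fell, against 17.5% of all genes that rose, and their median slope was 0.20. Chil3, a chitinase-like protein of macrophages (Entrez 12655, chromosome 3, 106147554 to 106167564), was at 3741, 1287, 3501, 3072 and 6733 CPM in the lowest libraries, 5695, 4863, 8289, 9661 and 19540 CPM in the middle and 12565, 8242, 12077, 20523 and 18354 CPM in the highest. The groups did not overlap, but the fifth middle library, replicate 1, was above 4 of the 5 highest. Its slope was 0.66 ± 0.14 (adjusted p = 0.00295). Mmp12, macrophage elastase, was at 30.1, 16.8, 33.7, 26.98 and 66.5 CPM in the lowest and 93.2, 366, 442, 205 and 161 CPM in the highest libraries, with a slope of 0.83 ± 0.15 (adjusted p = 0.00132). Retnla, a resistin-like molecule, rose with a slope of 0.45 ± 0.14 (adjusted p = 0.0234), but its groups overlapped, at 111, 113, 103, 595 and 943 CPM against 464, 784, 818, 1486 and 678 CPM. That call ended without replicates 7 and 12 (adjusted p = 0.0756), and also without replicate 12 or replicate 8 alone. Mrc1, the mannose receptor (0.30 ± 0.07), Ccl17 (0.35 ± 0.07), Clec7a (0.33 ± 0.08) and Egr2 (0.37 ± 0.08) also rose. Without the 2 libraries farthest from the median Arg1, Mrc1 (adjusted p = 0.0657) and Ccl17 (0.119) did not pass. Chil4 (slope 0.23 ± 0.27, adjusted p = 0.533), Ccl24 (0.20 ± 0.25, 0.558), Ccl22 (0.05 ± 0.06, 0.542) and Pdcd1lg2, the PD-L2 gene (0.12 ± 0.07, 0.217), did not pass the test.

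Other genes of arginine and polyamine metabolism were higher where Arg1 was higher in 9 of 21 tested cases, and 0 fell (median slope 0.05). Of all genes 17.5% rose. Slc7a2, a transporter that brings arginine into the cell, was at 209, 134, 205, 156 and 194 CPM in the lowest libraries and 346, 297, 311, 556 and 545 CPM in the highest, without overlap, and its slope was 0.44 ± 0.07 (adjusted p = 0.000484). Nos2, inducible nitric oxide synthase, which uses the same substrate as arginase, averaged 17.2 ± 2.72 CPM against 7.59 ± 1.24 CPM, also without overlap (slope 0.36 ± 0.08, adjusted p = 0.00229). Ass1, which rebuilds arginine from citrulline (0.35 ± 0.07), Arg2, the mitochondrial arginase (0.30 ± 0.07), and Sat1, which starts polyamine breakdown (0.18 ± 0.03), rose too. The call of Arg2 ended without replicate 8, where the slope of Arg2 was 0.25. Odc1, which turns ornithine into putrescine, had a slope of 0.04 ± 0.03 (adjusted p = 0.404). With library totals the list held 7 rises and 2 falls.

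In the pathway of the IL-4 and IL-13 receptors 5 of 11 members rose and 1 fell, with small slopes and a median of 0.05. Of all genes 17.5% rose and 17% fell. Il4ra, the receptor chain shared by both cytokines, averaged 163 ± 12.2 CPM against 136 ± 13.4 CPM (slope 0.12 ± 0.03, adjusted p = 0.00231), and Il13ra1 104 ± 5.50 against 89.3 ± 5.92 CPM (0.11 ± 0.03, 0.00866). Without the 2 libraries farthest from the median Arg1, Il13ra1 did not pass (adjusted p = 0.0667). Socs3, an inhibitor of cytokine signalling on this list, had a larger slope (0.29 ± 0.05, 0.000732), while Stat6 itself had one of 0.03 ± 0.02 (adjusted p = 0.187). Which cytokine lies behind the Socs3 level was not tested. The ligands were at the limit of detection: no library held more than 7 reads of Il4, 6 of Il5 or 13 of Il13, so these 3 genes were too low to test. With library totals the list held 3 rises and 2 falls, and without replicates 7 and 12 4 and 0.

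Of 9 tested genes of type 2 lymphocytes 3 rose, namely Bhlhe41 (0.46 ± 0.08), the growth factor gene Areg (0.36 ± 0.07) and Il1rl1 (0.19 ± 0.05), and 0 fell. That share is above the 17.5% of all genes, on few members, and Gata3, the factor that defines these cells, had a slope of -0.07 ± 0.05 (adjusted p = 0.344). Bhlhe41 averaged 111.6 CPM over the 15 libraries, Il1rl1 13.8 CPM and Areg 5.88 CPM. Which lung cells these reads came from was not tested, so the rises cannot be assigned to lymphocytes. Among alarmins and their receptors 5 of 9 rose, against the same 17.5%. Il1a, which encodes IL-1 alpha, averaged 28.5 ± 5.99 CPM against 8.86 ± 5.26 CPM (slope 0.55 ± 0.09, adjusted p = 0.000762), and Crlf2, the TSLP receptor chain, 37.5 ± 10.3 against 21.6 ± 4.14 CPM (0.23 ± 0.06, 0.00565). Il1rl1 was at 7.41, 9.51, 12.2, 11.9 and 16.1 CPM in the lowest and 12.3, 22.3, 15.5, 23.4 and 13.2 CPM in the highest libraries, with overlap, and its call ended without replicate 12 (adjusted p = 0.0622).

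Il33 itself (Entrez 77125, chromosome 19, 29925113 to 29960718) did not follow Arg1 in the fit (slope 0.13 ± 0.21, adjusted p = 0.674). It was at 184, 122.5, 223, 173 and 258 CPM in the lowest libraries, 217, 155, 260.01, 336 and 476 CPM in the middle and 394, 377, 384, 366 and 20.2 CPM in the highest. Of the highest libraries 4 were above all 5 lowest, and replicate 8, the library with the most Arg1, was at 20.2 CPM, below every saline library (63.01 to 140.2 CPM). The fit without the 2 libraries farthest from the median Arg1, replicates 8 and 12, gave a slope of 0.493 with an adjusted p of 0.0230. Reads assigned to this mouse gene come from animals with a humanised Il33, and which part of the gene they cover was not analysed here.

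Eosinophil genes did not move as a group. Of 6 tested genes, 5 chemokines and the receptor Ccr3, 1 rose and 1 fell. Ccl11, the eosinophil attractant eotaxin, was at 5.22, 4.16, 5.37, 17.6 and 13.96 CPM in the lowest and 23.98, 20.9, 23.4, 26.5 and 17.3 CPM in the highest libraries, which overlapped only in replicates 6 and 8 (slope 0.41 ± 0.11, adjusted p = 0.00821), and averaged 51.5 ± 20.1 CPM after 15 weeks without antibody. Ccl5 fell (-0.35 ± 0.09, 0.00610), but did not pass without the 2 libraries farthest from the median Arg1 (adjusted p = 0.0813). Of 8 eosinophil markers 0 rose and 1 fell, a share near the background. The one that fell was Ear1, an eosinophil-associated ribonuclease that alveolar macrophages also make, at 23.5, 23.6, 13.7, 13.5 and 9.99 CPM against 3.85, 5.05, 7.55, 6.71 and 3.78 CPM (slope -0.47 ± 0.10, adjusted p = 0.00257). Prg2, eosinophil major basic protein, had a slope of -0.15 ± 0.06 (adjusted p = 0.0698), and Siglecf one of 0.09 ± 0.08 (0.435).

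The list that joins genes that attract neutrophils with IL-17 and IL-1 mediators had a median slope of 0.49, which only the lists of squamous epithelium and skeletal muscle exceeded. Of its 10 tested members 8 rose and 0 fell, against 17.5% of all genes that rose, and 4 rose without replicates 7 and 12. Cxcl5, a neutrophil chemokine of epithelium, was at 2.75, 7.58, 7.06, 2.46 and 20.8 CPM in the lowest and 25.6, 22.6, 51.1, 37.4 and 18.01 CPM in the highest libraries, with overlap between replicates 9 and 8 (slope 0.65 ± 0.22, adjusted p = 0.0369, and 0.0544 without replicates 7 and 12). Its call also ended when any of replicates 2, 3, 4, 5, 10, 12, 13 or 15 was left out. Il6 averaged 1.58 ± 0.854 CPM against 0.289 ± 0.113 CPM (slope 0.64 ± 0.11, adjusted p = 0.000657), a low level in all libraries. Cxcl2 rose as well (0.89 ± 0.12, 0.000270), and Cxcl1 did not pass the test (0.43 ± 0.17, 0.0569). Of 11 neutrophil markers 5 rose and 0 fell, with a median of 0.19, against the same 17.5% of all genes. The markers that rose included Ltf, the granule protein lactoferrin, at 201 ± 67.9 against 86.9 ± 47.7 CPM (0.40 ± 0.10, 0.00884), and S100a8 at 49.1 ± 4.32 against 28.2 ± 11.3 CPM (0.30 ± 0.08, 0.0127). Without the 2 libraries farthest from the median Arg1, Ltf did not pass (adjusted p = 0.140) and S100a8 did (0.0347). In bulk lung RNA, more cells of a type and more RNA per cell cannot be told apart, here and in the lists that follow.

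Macrophage genes rose selectively. Of 16 monocyte and interstitial macrophage genes 5 rose and 2 fell (median 0.05), against 17.5% of all genes that rose and 17% that fell. Besides Spp1 the risers were Gpnmb, a lysosomal glycoprotein, Trem2, a lipid-sensing receptor, Cd14, the lipopolysaccharide co-receptor, and the chemokine Ccl2. Gpnmb was at 229, 110.1, 202, 133 and 302 CPM in the lowest libraries, 341, 409.9, 332, 458 and 1103 CPM in the middle and 623, 837, 860.1, 862 and 959.9 CPM in the highest (slope 0.65 ± 0.13, adjusted p = 0.00228). Trem2 averaged 67.7 ± 16.9 CPM against 18.3 ± 5.82 CPM (0.58 ± 0.11, 0.00175). In both genes the highest of the 15 values was that of a middle library, replicate 1. The monocyte receptors Ccr2 (-0.19 ± 0.05) and Cx3cr1 (-0.13 ± 0.05) fell, the latter with an adjusted p of 0.0705 without replicates 7 and 12, and the complement genes C1qa, C1qb and C1qc had slopes of -0.00495, 0.02 and 0.02. Of 12 alveolar macrophage genes, against the same shares of all genes, 5 rose and 0 fell (median 0.20). Besides Chil3 these were the integrin gene Itgax (0.40 ± 0.08, 0.00247), Abcg1 (0.23 ± 0.06), the lipid regulator Pparg (0.28 ± 0.07) and Plet1 (0.31 ± 0.11), and Plet1 did not pass without replicates 7 and 12 (0.126), when 1 other member, the lipid droplet gene Cidec, fell.

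**Figure D3:**
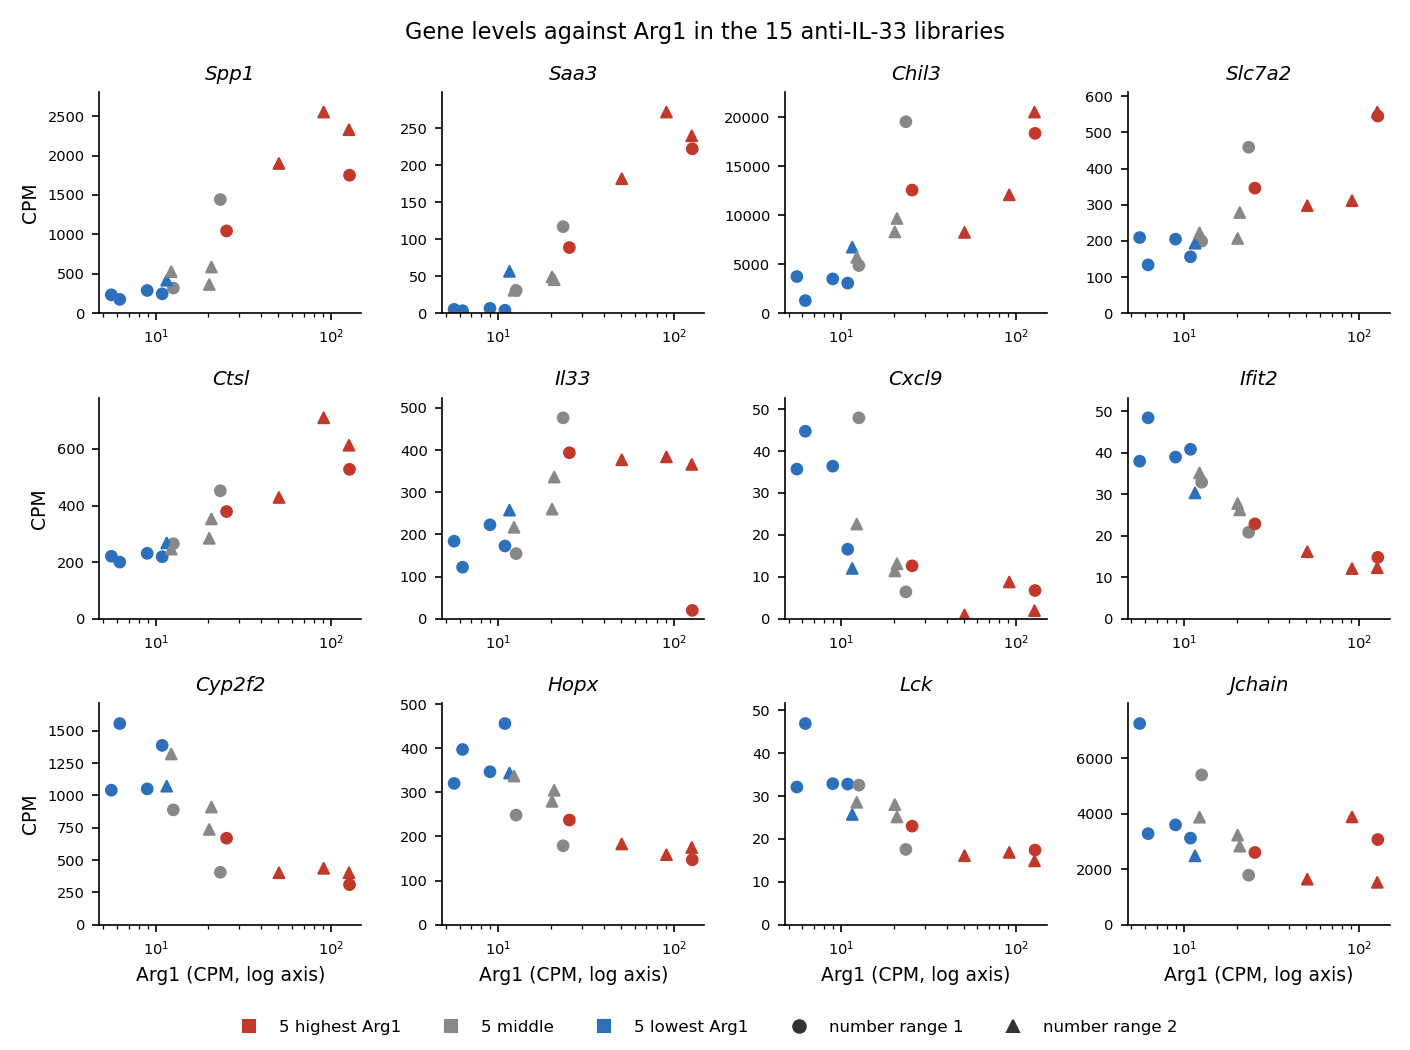
CPM of 12 named genes (linear axis from 0) against Arg1 CPM (log axis) in the 15 anti-IL-33 libraries, circles for number range 1 and triangles for range 2, with the 5 highest in red, the 5 lowest in blue and the rest in grey. Spp1, Saa3, Chil3, Slc7a2 and Ctsl go up with Arg1 and Cxcl9, Ifit2, Cyp2f2, Hopx and Lck go down, while Il33 has 1 library at 20.2 CPM and Jchain did not pass the test.

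The acute phase list had a median slope of 0.45, with 10 of 13 tested members rising and 0 falling, and 9 of the 13 were above without overlap in the 5 highest libraries. Of all genes 17.5% rose and 6.61% were above without overlap in CPM. Saa3, a serum amyloid A made locally by macrophages and epithelium (Entrez 20210, chromosome 7, 46711998 to 46719615), was at 5.12, 3.42, 6.56, 4.02 and 56.5 CPM in the lowest libraries, 30.96, 30.7, 49.1, 45.2 and 117 CPM in the middle and 88.8, 182, 272, 239.8 and 222 CPM in the highest. In 4 of the 5 lowest libraries it was at 3.42 to 6.56 CPM, against 0.560 to 4.70 CPM in saline, and replicate 9 was at the level of the middle libraries. Its slope was 1.16 ± 0.18 (adjusted p = 0.000677). Lcn2, a siderophore-binding protein of epithelium and neutrophils (Entrez 16819, chromosome 2, 32384637 to 32387739), was at 356, 234, 625.3, 397 and 908 CPM in the lowest and 1541, 1702, 1681, 1824 and 2525 CPM in the highest libraries (slope 0.66 ± 0.13, adjusted p = 0.00216). Orm1, an orosomucoid, was at 1.46, 0.743, 3.78, 1.56 and 10.3 CPM and 23.98, 30.9, 26.3, 32.3 and 109.9 CPM in the same order (slope 1.08 ± 0.21, adjusted p = 0.00223). Itih4 (0.54 ± 0.09), the lipopolysaccharide-binding protein gene Lbp (0.23 ± 0.04) and complement C3 (0.19 ± 0.03) rose with smaller slopes, and Saa1 (0.61 ± 0.24, adjusted p = 0.0579) did not pass. Hepatocytes also make such proteins. The summed level of 12 hepatocyte genes was 9.47 to 21.7 CPM in the 5 lowest and 16.4 to 29.1 CPM in the 5 highest libraries and 131 CPM in replicate 7. Of these genes 6 to 10 had reads in each library, Ttr and Fgb had none in any of the 15 and Alb had at most 15, while Fga and Ahsg rose. The part of hepatocyte RNA in the acute phase values was not tested.

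The 250 bases before the start site of Saa3 and Lcn2 are shown because both genes rise with Arg1 and acute phase promoters are known for binding sites of C/EBP factors. The sequences are from the RefSeq promoter table for GRCm38.p6, on the minus strand at chr7:46715677-46715926 and chr2:32387740-32387989, and the Saa3 start lies inside the annotated span of the gene. Capitals mark a match to TTGCNNAA on either strand.
Saa3: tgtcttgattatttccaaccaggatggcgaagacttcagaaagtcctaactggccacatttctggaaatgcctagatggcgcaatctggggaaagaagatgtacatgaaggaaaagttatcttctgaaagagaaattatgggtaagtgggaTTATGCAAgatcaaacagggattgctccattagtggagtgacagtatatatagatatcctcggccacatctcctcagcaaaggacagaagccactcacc
Lcn2: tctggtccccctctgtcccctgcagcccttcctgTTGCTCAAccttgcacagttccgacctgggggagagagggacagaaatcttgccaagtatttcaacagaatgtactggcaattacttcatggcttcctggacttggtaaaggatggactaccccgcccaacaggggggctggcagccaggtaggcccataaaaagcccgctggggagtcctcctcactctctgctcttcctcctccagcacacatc
Each of these windows held 1 match. Of 8 acute phase genes with an entry there, 5 held at least 1, and of all 32851 promoter windows of the same length 9.56% did. The latter is a share of windows, which belong to 27025 genes, and not of genes. A match describes letters and not a bound site.

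Airway and alveolar epithelial genes were mostly lower where Arg1 was higher. Of 10 club cell genes 7 fell and 2 rose (median -0.23), and of 12 ciliated cell genes 7 fell and 0 rose (median -0.18), against 17% of all genes that fell. Cyp2f2, a cytochrome P450 of club cells, was at 1040.5, 1556, 1050.4, 1387 and 1071 CPM in the lowest libraries, 1320.4, 888, 737, 909 and 405 CPM in the middle and 669, 401, 436, 401 and 309 CPM in the highest. Its slope was -0.46 ± 0.06 (adjusted p = 0.000232), and it averaged 2188 ± 396 CPM in saline and 356 ± 129 CPM after 15 weeks without antibody. Scgb1a1, the club cell secretory protein, averaged 5897 ± 1040.1 against 9994 ± 2072 CPM (-0.24 ± 0.05, 0.00257). The 2 club cell genes that rose were Scgb3a1 (0.33 ± 0.08) and the acute phase gene Hp (0.20 ± 0.04). Among ciliated cell genes Hydin (-0.25 ± 0.06), Dnah11 (-0.23 ± 0.06) and Tppp3 (-0.19 ± 0.03) fell, while the regulator Foxj1 had a slope of -0.02 ± 0.05 (adjusted p = 0.714).

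Of 11 type I alveolar genes 9 fell and 0 rose, and the 5 highest libraries were below the 5 lowest without overlap in 9. Of all genes 17% fell and 15.7% lay below without overlap in CPM. Hopx, a marker of these flat gas-exchange cells, was at 320.2, 397, 347, 456 and 344 CPM in the lowest and 237, 183, 159, 175 and 147 CPM in the highest libraries (slope -0.29 ± 0.04, adjusted p = 0.000431), and Cav1 averaged 431 ± 81.8 against 895 ± 124 CPM (-0.31 ± 0.04, 0.000230). Type II alveolar genes did not share this, with 2 of 11 rising and 1 falling, shares near the background, and 0 falling without replicates 7 and 12. Sftpc, surfactant protein C, had a slope of -0.00184 ± 0.0399 (adjusted p = 0.979), and Sftpd, a collectin that rose, averaged 1819.5 ± 339 against 1129 ± 194 CPM (0.28 ± 0.06, 0.00362). Of 12 goblet cell genes 3 rose and 1 fell, also near the background. Slc26a4, the anion exchanger pendrin, was at 49.1, 39.1, 106, 75.1 and 119 CPM in the lowest and 194, 207, 216, 259 and 204 CPM in the highest libraries (slope 0.53 ± 0.11, adjusted p = 0.00340). The mucin gene Muc5ac (0.11 ± 0.14, 0.565) and Clca1 (-0.19 ± 0.27, 0.616) did not pass the test.

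Many endothelial and fibroblast genes fell as Arg1 rose, while matrix and remodelling genes of a chosen list rose. Collagens as a family, counted after their values were seen, went both ways, with 9 rising and 10 falling of 34, as did laminins, with 2 and 4 of 11. Of 13 endothelial genes 8 fell and 0 rose (median -0.18), against 17% of all genes that fell. Tek, the angiopoietin receptor, was at 202, 283, 228, 315 and 229 CPM in the lowest and 166, 126, 104, 77.8 and 75.6 CPM in the highest libraries (slope -0.38 ± 0.06, adjusted p = 0.000440), and Kdr, a VEGF receptor, averaged 160.4 ± 43.7 against 325 ± 40.5 CPM (-0.32 ± 0.06, 0.00110). Kdr did not pass without the 2 libraries farthest from the median Arg1 (adjusted p = 0.0502). Of 13 fibroblast and smooth muscle genes 8 fell and 0 rose, among them the fibroblast regulator Tcf21 (-0.49 ± 0.06), Inmt (-0.48 ± 0.07) and Npnt (-0.30 ± 0.05). Of 21 matrix and remodelling genes 13 rose and 0 fell (median 0.14), against 17.5% of all genes that rose. With library totals 8 rose and 2 fell. Timp1, an inhibitor of matrix proteases, was at 5.77, 6.68, 6.06, 4.67 and 13.4 CPM in the lowest and 20.02, 38.3, 39.7, 30.3 and 18.1 CPM in the highest libraries (slope 0.61 ± 0.11, adjusted p = 0.00146). Col3a1, a fibrillar collagen, averaged 1015 ± 262 against 596 ± 63.01 CPM (0.26 ± 0.05, 0.00129), Tnc, tenascin C, 67.5 ± 17.3 against 34.3 ± 5.52 CPM (0.38 ± 0.09, 0.00533), and Tgfb1 129.6 ± 15.6 against 89.7 ± 5.29 CPM (0.22 ± 0.04, 0.00125). Fn1, fibronectin, did not pass (0.07 ± 0.05, 0.301).

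Genes of T and NK cells were lower where Arg1 was higher. Of 13 T cell genes 9 fell and 0 rose (median -0.21), and of 10 NK and cytotoxic genes 6 fell and 0 rose (median -0.23). Of all genes 17% fell. Lck, the kinase of T cell receptor signalling, was at 32.1, 46.9, 32.9, 32.8 and 25.7 CPM in the lowest libraries, 28.5, 32.6, 28.02, 25.1 and 17.6 CPM in the middle and 22.99, 16.1, 16.9, 14.9 and 17.4 CPM in the highest, without overlap at the ends. Its slope was -0.25 ± 0.04 (adjusted p = 0.000405). Cd28 (-0.32 ± 0.06), Cd3g (-0.25 ± 0.03), Cd8a (-0.33 ± 0.08) and Cd4 (-0.20 ± 0.06) fell too, while Foxp3, of regulatory T cells (-0.03 ± 0.06, adjusted p = 0.721), and Icos (-0.06 ± 0.05, 0.416) did not pass. Klre1, an NK receptor, averaged 0.773 ± 0.341 against 2.96 ± 1.08 CPM (-0.52 ± 0.11, 0.00312), and the NK factor Eomes 2.81 ± 1.23 against 6.25 ± 1.32 CPM (-0.35 ± 0.08, 0.00441). In the fit without the 2 libraries farthest from the median Arg1, neither Klre1 (adjusted p = 0.0819) nor Eomes (0.0960) passed. Ncr1 (-0.23 ± 0.10, 0.0713) and Gzma (-0.21 ± 0.09, 0.0688) did not pass over the 15.

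Of 10 B cell genes 2 fell, among them Cr2 (-0.26 ± 0.07), and 0 rose, a share near the background although the median slope was -0.22. Of 10 plasma cell genes 1 rose, Sdc1 (0.10 ± 0.02), which epithelium also expresses, and Jchain, the joining chain of secreted antibody, had a slope of -0.14 ± 0.09 (adjusted p = 0.253). Of 12 genes of lymphoid aggregates 1 fell, Ltb, and with library totals 5 fell. The call of Ltb ended without replicate 12 (adjusted p = 0.0511) and without replicate 5 or 8, and 2 genes of the list fell without replicates 7 and 12. Of 12 dendritic cell genes 5 fell and 0 rose, and of 9 MHC class II genes 5 fell and 0 rose, with medians of -0.12 and -0.09. Of all genes 17% fell. Without replicates 7 and 12, 3 dendritic cell genes fell. H2-Eb1, a class II chain, averaged 451 ± 52.8 against 697 ± 122.96 CPM (-0.18 ± 0.03, 0.00126), and Flt3, the receptor that sustains dendritic cells, 13.2 ± 2.46 against 19.9 ± 4.34 CPM (-0.17 ± 0.04, 0.00814). Of 10 mast cell and basophil genes 1 fell, the receptor gene Kit (-0.20 ± 0.04), which other lung cells also express, and 3 fell without replicates 7 and 12. In the fit without the 2 libraries farthest from the median Arg1, Kit (adjusted p = 0.130), Flt3 (0.120), Cr2 (0.0753) and Sdc1 (0.169) did not pass.

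Interferon-responsive genes were lower where Arg1 was higher. Of 11 tested genes of the interferon-gamma list 9 fell and 1 rose (median -0.27), and the one that rose was Nos2. Of 14 type I interferon genes 7 fell and 0 rose (median -0.16). Of all genes 17% fell. Cxcl9, a T cell chemokine that interferon gamma induces (Entrez 17329, chromosome 5, 92321331 to 92328079), was at 35.7, 44.7, 36.4, 16.6 and 12.02 CPM in the lowest libraries, 22.6, 47.9, 11.4, 13.1 and 6.44 CPM in the middle and 12.7, 0.935, 8.79, 1.95 and 6.77 CPM in the highest. Of the lowest libraries 4 were above all 5 highest, and replicate 9 overlapped replicate 2. Its slope was -0.64 ± 0.16 (adjusted p = 0.00682, and 0.0846 without the 2 libraries farthest from the median Arg1). Cxcl9 averaged 0.835 ± 0.372 CPM in saline, 3.73 ± 1.66 CPM after 15 weeks without antibody and 5.96 ± 4.29 CPM with the isotype, so the lowest Arg1 libraries were also higher in Cxcl9 than any of those 3 groups on average. Ido1, an enzyme of tryptophan breakdown (-0.46 ± 0.13), Cxcl10 (-0.38 ± 0.09), Tbx21, the T-bet gene (-0.36 ± 0.08), Gbp2 (-0.27 ± 0.05) and Irf1 (-0.11 ± 0.02) fell as well. Ifng itself averaged 0.378 ± 0.239 against 0.817 ± 0.407 CPM and did not pass (-0.40 ± 0.16, 0.0689).

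Ifit2, an interferon-induced antiviral protein (Entrez 15958, chromosome 19, 34550550 to 34576534), was at 37.98, 48.4, 38.97, 40.9 and 30.3 CPM in the lowest libraries, 35.1, 32.9, 27.8, 26.3 and 20.9 CPM in the middle and 22.9, 16.2, 12.1, 12.3 and 14.8 CPM in the highest. The ends did not overlap and the order was close to that of Arg1 in reverse (slope -0.38 ± 0.03, adjusted p = 4.05e-05). Unlike Cxcl9 it was high in saline, at 50.5 ± 6.999 CPM, and averaged 14.03 ± 5.38 CPM after 15 weeks without antibody. Ifit1 (-0.26 ± 0.03) and Ifit3 (-0.25 ± 0.03) fell in the same way, whereas Isg15 (-0.000715 ± 0.0583, adjusted p = 0.996), Oas1a (0.09 ± 0.04, 0.0730) and Rsad2 (0.11 ± 0.15, 0.598) did not pass.

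The 250 bases before the start sites of Cxcl9 and Ifit1 are shown because interferon responses run through known short elements in such promoters. They are from the same RefSeq table, Cxcl9 on the minus strand at chr5:92328080-92328329 and Ifit1 on the plus strand at chr19:34640639-34640888. Capitals mark matches on either strand to GAAANNGAA, the core of the interferon-stimulated response element.
Cxcl9: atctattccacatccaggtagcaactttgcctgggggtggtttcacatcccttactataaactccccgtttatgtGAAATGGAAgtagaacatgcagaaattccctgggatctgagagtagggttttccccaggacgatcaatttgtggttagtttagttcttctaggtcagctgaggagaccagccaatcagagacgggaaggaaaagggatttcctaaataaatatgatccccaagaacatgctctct
Ifit1: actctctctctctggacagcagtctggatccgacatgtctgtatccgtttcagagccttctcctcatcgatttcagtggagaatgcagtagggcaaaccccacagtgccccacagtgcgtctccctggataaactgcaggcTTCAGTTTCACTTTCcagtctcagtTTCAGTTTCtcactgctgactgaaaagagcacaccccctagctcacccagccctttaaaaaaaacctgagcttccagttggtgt
The Cxcl9 window held 1 match and the Ifit1 window 3, of which a pair overlap. Of 9 genes of the type I list with an entry 5 held a match, Isg15, Oas1a and Rsad2 among them, and of 7 genes of the interferon-gamma list 4 did. Of all windows of the same length 7.13% held one, again a share of windows and not of genes.

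Among genes of general cell state, 8 of 15 hypoxia and glycolysis genes rose and 0 fell (median 0.14), against 17.5% of all genes that rose. Slc2a1, the glucose transporter GLUT1, averaged 46.2 ± 8.80 against 27.02 ± 4.05 CPM (0.25 ± 0.03, 0.000100), and the hexokinase gene Hk2 77.7 ± 17.8 against 42.2 ± 5.96 CPM (0.31 ± 0.05, 0.000572). With library totals 5 rose. Of 17 proliferation genes 4 rose and 0 fell, a share close to the 17.5% of all genes, and with library totals 1 rose. Mki67 had a slope of 0.08 ± 0.05 (adjusted p = 0.266). Of 12 immediate early genes 2 rose, Atf3 (0.39 ± 0.07) and Junb (0.19 ± 0.06), and Jun fell (-0.07 ± 0.03), again near the background. Without replicate 12 neither Junb (adjusted p = 0.114) nor Jun (0.120) passed. The call of Junb also ended without replicate 5, 10 or 13, and that of Jun without any of replicates 1, 2, 3, 5, 8, 9, 11, 13 or 15.

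Each list of another tissue held at most 2 calls in the fit, and some of their median slopes were large. No skeletal muscle, red blood cell or basal and squamous epithelial gene passed the test in the 15 libraries, although the median slopes of the muscle and squamous lists were 0.81 and 0.93. Without replicates 7 and 12 those medians were -0.10 and 0.28. Of 9 fat genes 1 rose, Lpl, lipoprotein lipase, which macrophages and alveolar cells also make, at 375, 316, 382, 300.1 and 419 CPM against 669.7, 662, 948, 884 and 928 CPM (0.41 ± 0.07, 0.000603). The summed fat level, 333 to 501 CPM in the 5 lowest and 704 to 1009 CPM in the 5 highest libraries, is mostly Lpl. The other 8 fat genes, Adipoq and Plin1 among them, had negative slopes and did not pass, and 4 of them fell without replicates 7 and 12. Without those libraries 5 of 8 red blood cell genes fell too. Replicate 12 held 10630 CPM of these 8 genes, the most of the 15 libraries. The rest of the 5 highest held 456 to 1431 CPM, against 2011.5 to 7124 CPM in the 5 lowest. Of 4 tested hepatocyte genes Fga (0.57 ± 0.19, 0.0284) and Ahsg (0.48 ± 0.10, 0.00261) rose, and of 10 cardiac muscle genes Actc1 (-0.26 ± 0.06) and Myl7 (-0.24 ± 0.07) fell. Without replicate 12 neither Fga (adjusted p = 0.0796) nor Myl7 (0.0633) passed, and the call of Fga ended without replicate 10 and that of Myl7 without replicate 8 as well. Without the 2 libraries farthest from the median Arg1, neither Ahsg (adjusted p = 0.0716) nor Actc1 (0.153) passed. Without replicates 7 and 12 the hepatocyte list held 1 rise and 1 fall, 1 squamous gene rose and 1 muscle gene fell.

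**Figure D4:**
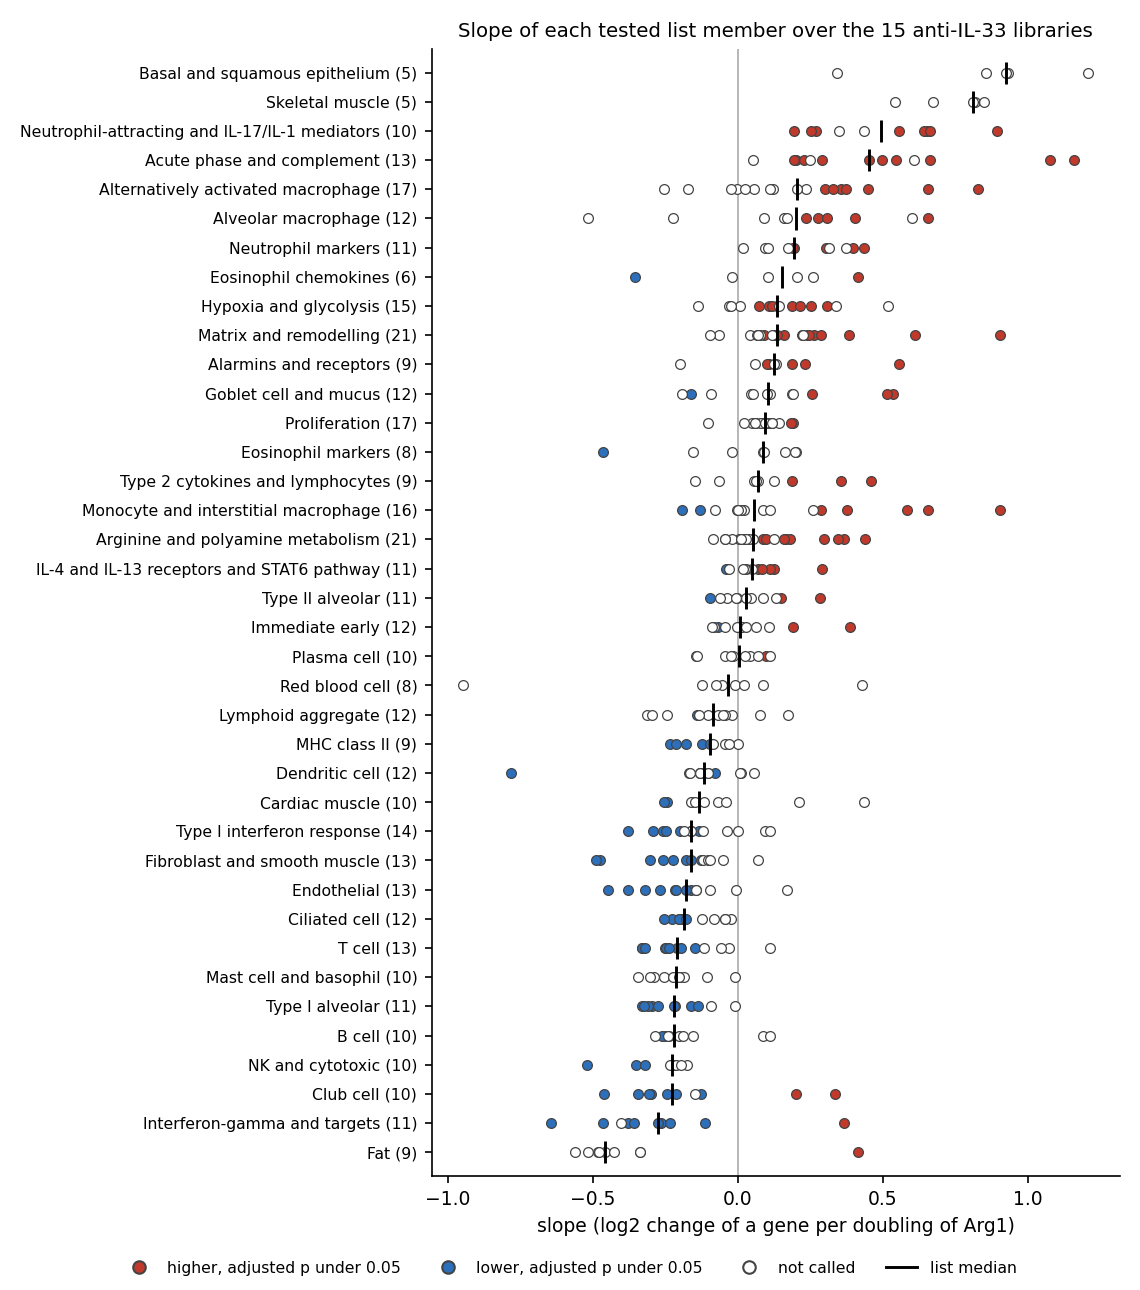
Slope on Arg1 of each tested member of the gene lists with at least 5 tested members over the 15 anti-IL-33 libraries (log2 change for each doubling of Arg1), with a row for each list, its number of tested members in parentheses and its median as a bar. Filled points passed the test, red for genes that rose and blue for genes that fell. Acute phase genes and the list of neutrophil-attracting genes with IL-17 and IL-1 mediators lie to the right. Interferon-gamma, club cell and NK genes lie to the left, while the muscle and squamous rows at the top hold no call.

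The trend was then taken within each number range. In range 2, with 7 libraries, 3051 of 14957 tested genes passed (20.4%), and in range 1, with 8 libraries, 69 of 14922 passed (0.462%), while 4232 had an unadjusted p under 0.05. Without replicate 7 the count in range 1 was 444, and without replicate 12 that in range 2 was 1570. The ranges share no library, so signs can be compared. Of 3032 genes called in range 2 that were also tested in range 1, 97.2% had the same sign there, against 78.5% of all genes tested in both. Without replicates 12 and 7 the shares were 97.2% and 74.3%. Between the ranges 0 genes differed in slope by edgeR's interaction test with BH adjustment (549 at an unadjusted p under 0.05), 0 by limma-voom and 27 by DESeq2. All 135 named genes that were called over the 15 libraries had the same sign in both ranges. Their calls came from these same libraries, which favours a shared sign, so this is a description only. For the 24 genes of largest slope it was also part of the rule that named them. In Spp1 the slopes were 0.93 ± 0.17 in range 1 and 0.88 ± 0.12 in range 2, and in Ifit2 -0.34 ± 0.05 and -0.43 ± 0.04.

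The same measure was taken in 2 groups that the choice of libraries did not use, mice without antibody. After 4 weeks of HDM, where Arg1 spanned 4.01-fold over 10 libraries, 0 genes passed by edgeR (1420 at an unadjusted p under 0.05), 0 by limma-voom and 196 by DESeq2. Without replicate 3 of that group, which held 9055 CPM of red blood cell genes, 207 passed by edgeR. Replicate 10 of that group held 1477 CPM of the muscle and 1940 CPM of the squamous markers, and its part in these values was not tested. Of the 5213 genes called under anti-IL-33 and tested there, 80.3% had the same sign at 4 weeks, against 66.4% of all genes, and 84.9% against 70.8% without replicate 3. Spp1, Ctsl and Gpnmb had slopes of 0.88 ± 0.25, 0.91 ± 0.21 and 0.85 ± 0.33 at 4 weeks. Saa3 had 0.10 ± 0.46 there, and Lcn2 0.15 ± 0.22. The median slope of the acute phase list was 0.03 at 4 weeks and -0.31 at 15 weeks without antibody, against 0.45 under anti-IL-33. That of the T cell list was 0.16 at 4 weeks against -0.21 under anti-IL-33, that of the B cell list 0.58 against -0.22, and that of the type I alveolar list -0.23 against -0.22. Whether these medians differ was not tested.

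After 15 weeks without antibody, with 7 libraries and a 7.56-fold span of Arg1, 0 genes passed by edgeR (874 at an unadjusted p under 0.05), 0 by limma-voom and 32 by DESeq2. The signs of the genes called under anti-IL-33 were shared by 42.9% there, against 44.9% of all genes. Replicate 1 of that group had the least Arg1 in it, 61.2 CPM. Without it 49 genes passed, and 76.7% of signs were shared against 65.3% of all genes. The slope differed between the 15-week groups with and without anti-IL-33 in 91 of 15669 genes by edgeR's interaction test (0.581%), of which 17 were higher and 74 lower without antibody. Limma-voom gave 49 such genes, and edgeR gave 296 without that replicate. Among the named genes the slope differed, with all libraries in the fit, for Ltf. It had a slope of 0.40 ± 0.10 under anti-IL-33 and -0.96 ± 0.26 without antibody, a difference of -1.31 ± 0.30 (adjusted p = 0.0476). Replicate 1 without antibody also held 814 CPM of 14 neutrophil markers, against 350 to 706 CPM in the rest of its group. The Ltf difference without that replicate is not reported here.

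**Figure D5:**
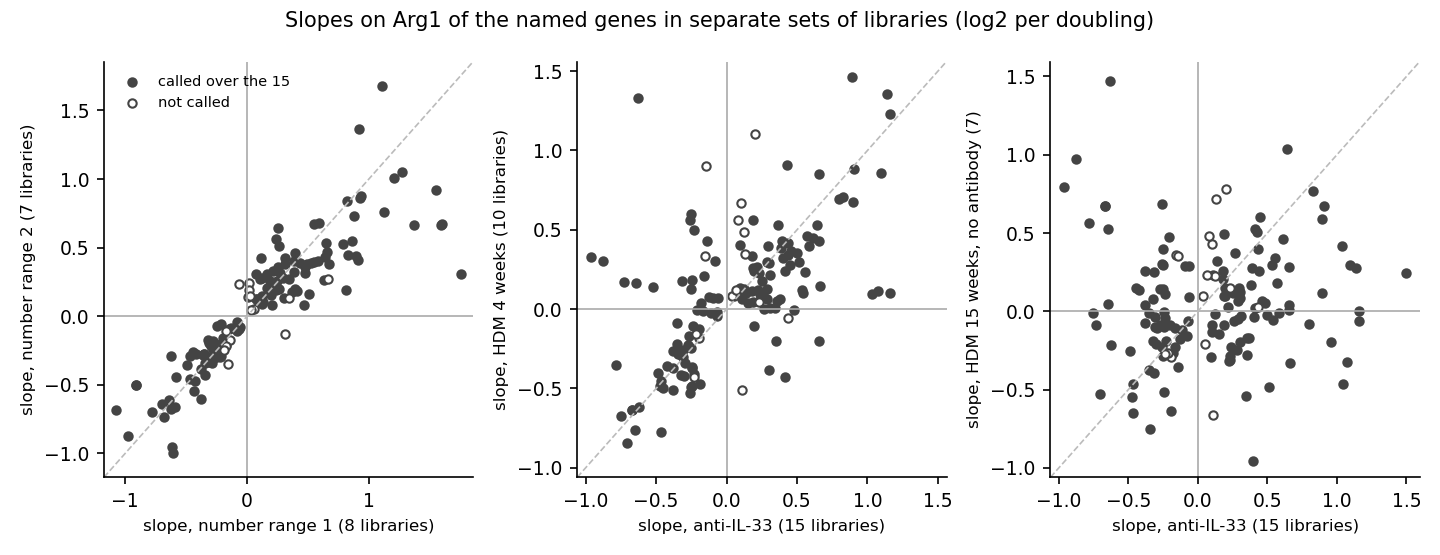
Slopes on Arg1 of the named genes (log2 change for each doubling) in number range 1 against range 2 of the anti-IL-33 libraries, and over the 15 anti-IL-33 libraries against the 10 libraries at 4 weeks and the 7 at 15 weeks without antibody, with genes called over the 15 filled. Points gather along the dashed line of equal slopes between the ranges, less so against 4 weeks, and spread over all quadrants against 15 weeks without antibody.

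For 41 genes chosen by name the relation to log2 Arg1 was also taken gene by gene on log2 CPM over the 15 libraries, with 2-sided permutation tests and BH adjustment over the 41. By Spearman's rho 27 had an adjusted p under 0.05. Spp1 had r = 0.922 (p = 1e-05, adjusted 0.000205) and rho = 0.936 (p = 1e-05, adjusted 0.000164), where 1e-05 is the smallest p that the permutations can give, and r = 0.927 without the 2 libraries farthest from the median Arg1. Within the ranges its r was 0.891 and 0.936. Cxcl9 had r = -0.786 (permutation p = 0.000690, adjusted 0.00236) and rho = -0.796 (p = 0.000640, adjusted 0.00239), with r = -0.758 without those 2 libraries and -0.803 and -0.710 within the ranges. Il33 had r = -0.0689 (permutation p = 0.815, adjusted 0.835) and rho = 0.468 (p = 0.0812, adjusted 0.107), with r = 0.783 without the 2 libraries and -0.529 and 0.851 within the ranges, of which range 1 holds replicate 8. Leaving out those 2 kept the sign of rho in 40 of the 41 genes, with Ccl22 as the exception, and 34 had the same sign in both ranges.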

How the data were processed

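Raw gene counts per library were used as deposited, 1 column per library, keyed by Entrez gene ID, for 24475 IDs. Per the submitters' processing notes the build was GRCm38. The aligner, counter and annotation were not stated there. Per the labels' protocols the libraries were made from total lung RNA with a stranded mRNA kit. Of the IDs 100 had no symbol in the RefSeq gene table and held 2.62% of counts, and they stayed in the totals. CPM was computed from these counts and the column totals. The gene-wise slope on log2(Arg1 CPM + 0.5), with a number range term and without Arg1 among the genes, was fitted with edgeR 4.0.16 in R 4.3.3 (filterByExpr, TMM, quasi-likelihood, 2-sided, BH). Limma 3.58.1 and DESeq2 1.42.0 were alternatives. Depth was 5126491 to 12599467 counts in the 15 libraries, which limits genes of a few reads. Named genes were the 12 largest slopes in each direction among called genes averaging 2 CPM or more with the same sign in both ranges, up to 3 per list, the 6 most and least like Arg1, and 44 fixed names; other list members are quoted to describe their list, and some genes the rule names are not reported here. The libraries, members and lists were chosen with earlier results of these data known. The fit over the 15 libraries was also run on simulated data in which genes varied independently and few had a slope. That setting differs from these data, where a large share of genes followed Arg1, so it does not test the counts given here.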

Additional observations from a re-analysis of the deposited data

Results flagged for a closer look

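Of 88 groups of 5 libraries checked, 9 held 1 library far from the other 4, and chance flags about 1 in 20 groups. In the 5 highest Arg1 libraries, replicate 8 was apart with the lowest Il33, 20.2 CPM, and the highest Lcn2, 2525 CPM. In the 5 lowest, replicate 9, the one with the most Arg1 among them and the only one from number range 2, was apart with the highest Saa3 at 56.5 CPM, Cxcl5 at 20.8 CPM, Timp1 at 13.4 CPM, Cxcl1 at 12.9 CPM and Ccl17 at 10.2 CPM. Replicate 5 was apart in S100a8 at 47.8 CPM and replicate 4 in Jchain at 7248 CPM. The slope of Ltf on Arg1 differed by -1.31 between 15 weeks without antibody and with anti-IL-33, by the interaction test in edgeR with all libraries of both groups.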

How the results depend on the processing

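Of 152 named genes tested 135 were called over the 15 libraries, and 85 of them kept their call under every alternative with a value. Without the 2 libraries farthest from the median Arg1, replicates 8 and 12, 44 called genes lost it and the counts were 1135 rising and 1018 falling. Library totals alone gave 1526 and 4476. Leaving out 1 library gave 2019 to 2934 rising and 1862 to 2827 falling genes. The counts above and below without overlap were 1926 and 3929 with 4 libraries a side, 363 and 354 with 7, 1679 and 1451 with TMM scaling, and 1040 to 1514 and 2481 to 3377 leaving out 1, with the 1514 without replicate 2. Range 1 gave 444 without replicate 7 and range 2 gave 1570 without replicate 12. At 15 weeks without antibody 49 passed without replicate 1 and 32 by DESeq2, and at 4 weeks 207 without replicate 3 and 196 by DESeq2. Slope differences numbered 27 between ranges by DESeq2, and against 15 weeks without antibody 49 by limma-voom and 296 without replicate 1. Values changed sign for the slope of Ccl22, at -0.0227 without replicate 8 (-0.0227 to 0.110 over libraries left out) and -0.0565 without the 2 farthest, the slope of Ccl24, at -0.00379 without replicate 12 (-0.00379 to 0.474), the slope of Clca1, at 0.00998 without the 2 farthest, the slope of Il33, at -0.17 by limma-voom and -0.0668 with only the 5 highest and 5 lowest, and the slope of Odc1, at -0.0037 with library totals; the cause was not tested. No paired analysis was possible because the labels give no pairing of libraries across groups.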

Other observations

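Gene families chosen after their values were seen were counted over the 15 libraries in the fit of the report, where 17.5% of all genes rose and 17% fell. Of 13 tested cathepsins, the lysosomal proteases, 10 rose and 0 fell (median slope 0.22), and of 22 subunits of the vacuolar ATPase, which acidifies lysosomes, 16 rose and 2 fell (median 0.18). Of 19 glycolytic enzymes 13 rose and 1 fell. Among interferon-induced families, 9 of 11 guanylate-binding proteins, 5 of 6 Ifit genes and 5 of 7 genes of the Ifi200 family fell, and 1 rose in the last of these; reads can be shared between near-identical copies there. Of 32 cytochrome P450 genes 3 rose and 12 fell. Of 34 collagens 9 rose and 10 fell. Rises among 39 proteasome subunits, 24 with TMM scaling, numbered 6 with library totals, and those among 74 ribosomal proteins went from 20 to 5.

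Some genes with large slopes took either a low or a high level with little between, singled out after their values were seen. Gdpd3 (chromosome 7, 126766414 to 126775645) was at 2.48 to 4.33 CPM in replicates 3, 1, 2, 13, 12 and 8 and at 36.4 to 57.6 CPM in the other 9. Itgad, on the same chromosome (128173933 to 128205504), was at 0.170 to 0.931 CPM in replicates 1, 2, 13, 12 and 8 and at 2.09 to 6.35 CPM in the other 10. Hal, histidine ammonia-lyase (chromosome 10, 93488768 to 93516761), was at 26.7 to 57.5 CPM in replicates 10, 15, 14, 11, 13, 12 and 8 and at most 2.90 CPM in the other 8. Of the libraries high in Hal 6 are among the 7 of number range 2 and 1 is among the 8 of range 1. Of the libraries low in Gdpd3 4 are in range 1 and 2 in range 2, and of those low in Itgad 3 and 2. Wide spreads of these genes were not particular to the anti-IL-33 libraries. Gdpd3 ran from 3.38 to 77.7 CPM in saline and 2.01 to 79.8 CPM with the isotype. After 15 weeks without antibody Gdpd3 ran from 2.09 to 64.4, Hal from 1.02 to 50.1 and Itgad from 0.0869 to 12.5 CPM. In saline Hal ran from 0 to 5.08 and Itgad from 0.686 to 3.50 CPM. What set these levels was not tested.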
